A study of Mus musculus with 9 samples.

Results

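A set of 9 genes that transport, activate, inactivate, bind or respond to thyroid hormone were followed in the translatome of mouse brain astrocytes and of their perivascular endfeet. They were Slco1c1, Dio2, Dio3, Crym, Thra, Thrb, Klf9, Hr and Thrsp, 9 of the 22092 named genes in the count tables. They were selected on their function by symbol, with earlier folds of this same contrast known, so their folds and adjusted p-values are a description and not independent evidence. The transcript that stands for each gene was chosen by its CPM (a count divided by the library's total count and scaled to 1e6 counts), as the one with the highest sum over the 9 libraries. For the levels given below, the total is that of the chosen transcripts. All mice were 2 months old and of strain Aldh1L1 JD130, in which the Aldh1L1 promoter drives a ribosomal protein fused to GFP (genotype tg:Aldh1L1-L10aGFP), and polysome mRNAs were pulled down through GFP by translating ribosome affinity purification (TRAP). There were 3 whole astrocyte TRAP libraries, each from 1 brain with the choroid plexus taken out, and 6 endfeet TRAP libraries, each from the purified brain vessels of 8 pooled mice, to which astrocyte endfeet stay attached.

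In the brain, thyroid hormone enters mainly as the prohormone thyroxine, which transporters such as OATP1C1, the product of Slco1c1, carry across membranes. Astrocytes are a main site of type 2 deiodinase, the product of Dio2, which converts thyroxine into the active hormone triiodothyronine, whereas the type 3 deiodinase of Dio3 inactivates both. Triiodothyronine binds the nuclear receptors encoded by Thra and Thrb, and Klf9, Hr and Thrsp are classic targets of these receptors.

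Slco1c1 was the only one of the 9 genes with a higher level in endfeet TRAP than in whole astrocyte TRAP. Thrsp, Crym, Hr, Dio2, Klf9, Thra and Thrb were lower, and Dio3 was near the limit of detection. Of the 8 genes that passed the filter on low counts, 7 were lower in endfeet TRAP at an adjusted p of at most 0.05 (edgeR quasi-likelihood test), a call made for 13.9% of the 14427 genes tested, and 1 was higher, a call made for 20.7%. The CPM of the 6 endfeet libraries lay wholly below those of the 3 whole astrocyte libraries for the same 7 genes, a pattern that 25.7% of tested genes had, and wholly above for Slco1c1, as for 17.7% of tested genes. The median log2 fold change was -2.54 over the 8 genes and 0.10 over all genes tested. In such bulk samples, fewer cells or processes of a type and less RNA in each cannot be told apart.

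**Figure D1:**
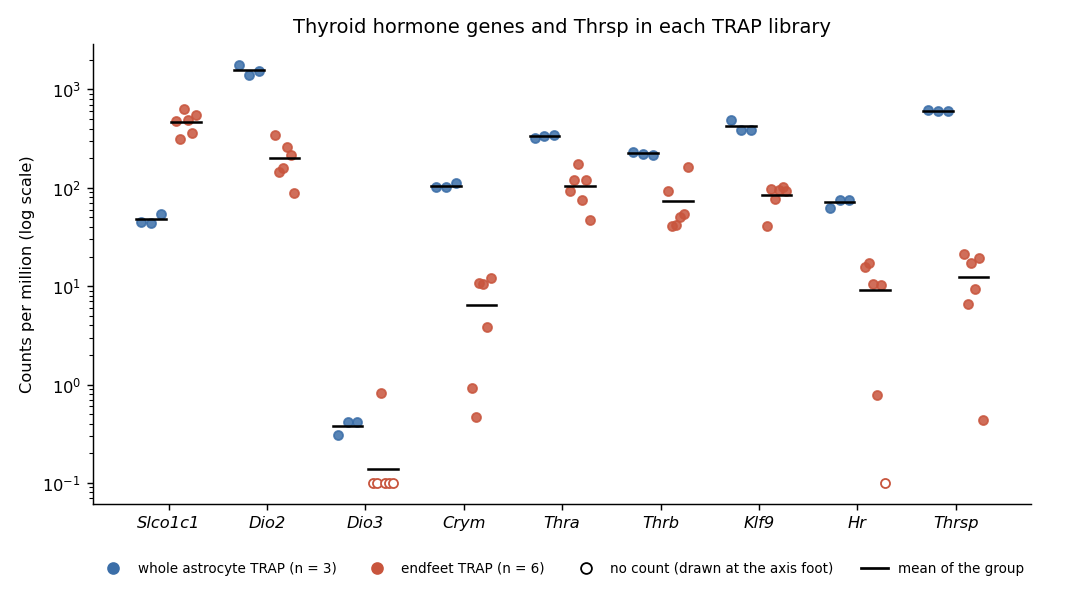
CPM (log scale) of the 9 genes in each library, with whole astrocyte TRAP (3 libraries) at the left and endfeet TRAP (6 libraries) at the right of each gene; black lines are group means and open circles are libraries without a count. Slco1c1 alone sits higher in endfeet TRAP, with 311 to 635 CPM against 44.0 to 54.6, and Thrsp shows the widest gap.

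The whole astrocyte libraries were deep and alike, with total counts over the chosen transcripts of 35984144 to 43521208. The endfeet libraries were shallower and more scattered, with 2319495 to 13450588. A floor of 3 counts was worth 0.0689 to 0.0834 CPM in the former and 0.223 to 1.29 CPM in the latter, and the common dispersion fitted within each group was 0.0141 and 0.724. Endfeet library 6 was the shallowest. Markers of other cells moved with the contrast. The 12 endothelial markers were all called higher and summed to 7.56 to 8.35 CPM in whole astrocyte and 2451 to 5154 in endfeet TRAP. So were the 10 mural markers called higher (37.0 to 39.1 against 2903 to 7884 CPM). The 7 fibroblast markers (21.4 to 37.1 against 705 to 1328 CPM) were all called higher too. The 7 choroid plexus markers summed to 73.2 to 1604 CPM in whole astrocyte and 6772 to 73398 CPM in endfeet libraries, with 6 called higher. Ttr alone, at 6450 to 71018 CPM, made up most of the endfeet sums, and Otx2 was not called (log2 fold change 0.05). The 8 neuronal markers summed to 3613 to 4114 CPM against 982 to 1872, with 3 called lower. The 13 astrocyte markers summed to 40093 to 43613 CPM against 13774 to 33868, with 6 called lower and 1 called higher. They did not move together. Slc1a2, the largest part of the endfeet sum, had means of 8368 and 14703 CPM and was not called. Glul went from 12664 to 1223 CPM and Aldoc from 11324 to 658, both called lower, and Aqp4 was the 1 called higher. Markers of microglia and macrophages (22.7 to 27.1 against 196 to 397 CPM in sum, 8 of 11 called higher) and of ependymal cells (27.8 to 39.3 against 62.1 to 219 CPM, 5 of 7 called higher) moved too. Tanycytes, a known site of Dio2, had 4 markers that summed to 8.13 to 11.0 CPM against 11.4 to 104 CPM, of which the 2 tested were called higher. Rax and Fndc3c1 had no count in endfeet TRAP. Their means in whole astrocyte TRAP, 0.780 and 0.167 CPM, were low beside the endfeet floors of 0.223 to 1.29 CPM. The part of these other cells in the results was not tested.

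The sequences shown here are stretches of coding DNA that set members of the pathway apart. Both deiodinases are selenoproteins, in which an in-frame TGA codon is read as selenocysteine, the residue at the active site. Dio2 lies at chr12:90724552-90738438 on the minus strand (mm10) and Dio3 at chr12:110279068-110281097 on the plus strand. In the GENCODE M21 transcripts the TGA is codon 130 of 266 in Dio2, with a second TGA at codon 263, and codon 170 of 304 in Dio3. The TGA is in capitals, with the coding bases around it in lower case, 5′ to 3′:

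Dio2, chr12:90729793-90729855: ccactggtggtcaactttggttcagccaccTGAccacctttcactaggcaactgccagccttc

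Dio2, second TGA, chr12:90729415-90729456: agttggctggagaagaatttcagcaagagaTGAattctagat

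Dio3, chr12:110279709-110279771: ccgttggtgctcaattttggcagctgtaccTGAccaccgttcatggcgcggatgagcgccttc

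Thra encodes a hormone-binding receptor, alpha1, and through an alternative last exon a product, alpha2, that does not bind triiodothyronine. The transcripts share 1110 coding bases and part at codon 371, after which alpha1 runs to 410 residues and alpha2 to 492. The last 30 shared bases are in lower case and the first 30 bases of each product's own part in capitals. The alpha1 stretch is at chr11:98764376-98764435 on the plus strand (mm10), whereas that of alpha2 breaks off after position 98764405 and goes on in another exon at 98768157 to 98768186:

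Thra alpha1: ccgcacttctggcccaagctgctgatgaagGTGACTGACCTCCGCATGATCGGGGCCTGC

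Thra alpha2: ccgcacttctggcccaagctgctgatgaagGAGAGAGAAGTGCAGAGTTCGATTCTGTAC

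The transporter gene Slco1c1, at chr6:141524386-141570177, had 45.4, 44.0 and 54.6 CPM in the 3 whole astrocyte libraries (1587 to 2376 counts). In the endfeet libraries its lowest level was 311 CPM, its median 484 and its highest 635 CPM (1282 to 8448 counts). All 6 endfeet libraries were above all whole astrocyte libraries, and the coefficient of variation of 25.6% was the smallest of the 9 genes in this group. The mean rose from 48.0 ± 5.75 CPM (SD, n = 3) to 470 ± 121 CPM (SD, n = 6), a log2 fold change of 3.38 (SE 0.32; edgeR adjusted p = 5.21e-06), or 10.4-fold. Per kilobase of transcript it moved from position 4382 to position 185 among 22091 genes ranked by level. The fold was smaller than that of each of the 12 endothelial markers, whose log2 fold changes ran from 6.68 to 12.32. Those markers had means of only 0 to 1.51 CPM in whole astrocyte TRAP, against 48.0 CPM for Slco1c1. The folds thus start from unlike levels, and their sizes do not tell the source of the Slco1c1 counts. Slco1c1 is known to be expressed by endothelial cells as well as astrocytes. The part of vessel cells in this value was not tested, nor that of other cells whose markers rose, such as choroid plexus.

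Dio2 had 1776, 1418 and 1547 CPM in the whole astrocyte libraries (51091 to 67336 counts). In endfeet TRAP it ranged from 89.2 to 348 CPM around a median of 188 (207 to 3287 counts), so the groups did not overlap. The mean of 1580 ± 182 CPM (SD, n = 3) fell to 203 ± 92.4 CPM (SD, n = 6), with a log2 fold change of -2.83 (SE 0.38; edgeR adjusted p = 0.000102). Per kilobase, Dio2 went from position 154 to position 1622 of 22091 genes.

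The order of the transporter and the deiodinase differed between the groups. Slco1c1 reached 0.047 to 0.065 of the Dio2 level per kilobase in whole astrocyte TRAP and 2.50 to 11.3 times the Dio2 level per kilobase in endfeet TRAP. This ratio is taken within a library and does not depend on how libraries are scaled.

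Dio3, the inactivating deiodinase, was barely detected. It had 0.306, 0.416 and 0.414 CPM in the whole astrocyte libraries (11 to 18 counts). In endfeet TRAP 5 of 6 libraries had no count, while endfeet library 3 had 11 counts, or 0.827 CPM. A count of 0 allowed up to 0.347, 0.237 and 0.223 CPM in endfeet libraries 2, 4 and 5, below the whole astrocyte mean of 0.378 CPM, and up to 0.461 and 1.29 CPM in libraries 1 and 6, above it. Dio3 did not pass the filter on low counts, and without that filter its log2 fold change was -1.38 (SE 1.51; edgeR adjusted p = 0.505).

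Crym, at chr7:120186380-120202111, encodes mu-crystallin, a cytosolic protein that binds triiodothyronine. Its levels were 102, 103 and 112 CPM in whole astrocyte TRAP (3657 to 4856 counts). The endfeet libraries ran from 0.462 to 12.1 CPM with a median of 7.14 (4 to 142 counts), and libraries 1 and 2, at 0.921 and 0.462 CPM, were the lowest. The mean fell from 105 ± 5.42 CPM (SD, n = 3) to 6.40 ± 5.26 CPM (SD, n = 6), and the log2 fold change was -4.01 (SE 0.75; edgeR adjusted p = 0.00117). Its coefficient of variation in endfeet TRAP, 82.1%, was above that of the other 7 genes tested. The log2 fold change was -4.68 with limma voom and -5.73 in the fit with a replicate block, which rests on endfeet libraries 1 to 3.

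Both hormone receptor genes were lower in endfeet TRAP, and by less than the enzyme, the binding protein or Thrsp. Thra, at chr11:98741811-98769006 and represented by its alpha2 transcript, had 320, 333 and 348 CPM in whole astrocyte TRAP and 47.0 to 175 CPM, with a median of 106, in endfeet TRAP. No endfeet library reached the whole astrocyte range. The mean fell from 334 ± 14 CPM (SD, n = 3) to 105 ± 44.3 CPM (SD, n = 6), with a log2 fold change of -1.60 (SE 0.31; edgeR adjusted p = 0.00143). Exons of Nr1d1, the clock gene on the opposite strand, cover 263 bases of the alpha2 transcript (98768157 to 98768419), among them all 30 capital bases shown for alpha2. The counting strand is not given in the sources used here, so reads in those bases could come from either gene, and Nr1d1 also fell, from 666 to 138 CPM (log2 fold change -2.21; edgeR adjusted p = 0.00172). Counted on the alpha1 transcript, which shares no exon base with Nr1d1, Thra had a log2 fold change of -1.52 (SE 0.61) and was no longer past the threshold (edgeR adjusted p = 0.0711).

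Thrb, at chr14:17660896-18033792, had 231, 223 and 218 CPM in whole astrocyte TRAP (8034 to 9474 counts). In endfeet TRAP it had 41.3 to 162 CPM with a median of 52.4 (357 to 725 counts), and library 6, the highest, was still below the whole astrocyte range. The mean fell from 224 ± 6.82 CPM (SD, n = 3) to 73.9 ± 47.1 CPM (SD, n = 6), a log2 fold change of -1.47 (SE 0.45; edgeR adjusted p = 0.0217). The call was lost without any 1 of the whole astrocyte libraries (adjusted p = 0.0833, 0.0638 and 0.061 without libraries 1, 2 and 3), without endfeet library 2 (log2 fold change -1.27; adjusted p = 0.0563), and where the series of numbers in the file names was held constant, by using endfeet libraries 4 to 6 alone (adjusted p = 0.0595) or by a covariate that sets endfeet libraries 1 to 3 apart (0.106). No level per kilobase is given for Thrb, because its chosen transcript, 1758 bases long in GENCODE M21, had 29098 counts in all and a 4532-base transcript that contains the whole of it only 20748.

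The ratio of the counts of the Thra transcripts did not differ between the groups beyond its spread. The alpha2 count divided by the alpha1 count was 2.91, 3.21 and 2.87 in whole astrocyte TRAP. In endfeet TRAP the lowest ratio was 1.34 in library 4, libraries 1, 2 and 3 were at 3.05, 3.0 and 2.33, library 5 was at 5.55 and the highest was 21.8 in library 6, which had 109 alpha2 counts and 5 alpha1 counts. The mean log2 ratio was 1.58 ± 0.088 (SD, n = 3) against 1.94 ± 1.34 (SD, n = 6), a difference of 0.36 (two-sided exact permutation test over 84 splits, p = 0.857; the smallest p this design allows is 0.0238). Without endfeet library 6 the difference turned to -0.12 (exact permutation p = 0.75). The ratio was not used to choose the genes, and it carries the same overlap with Nr1d1. Only 912 exon bases of alpha2 and 706 of alpha1 are not shared between them. A read in the shared bases can count for both transcripts and so move the ratio towards 1. The ratio is thus one of transcript counts and does not measure the balance of the products.

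**Figure D2:**
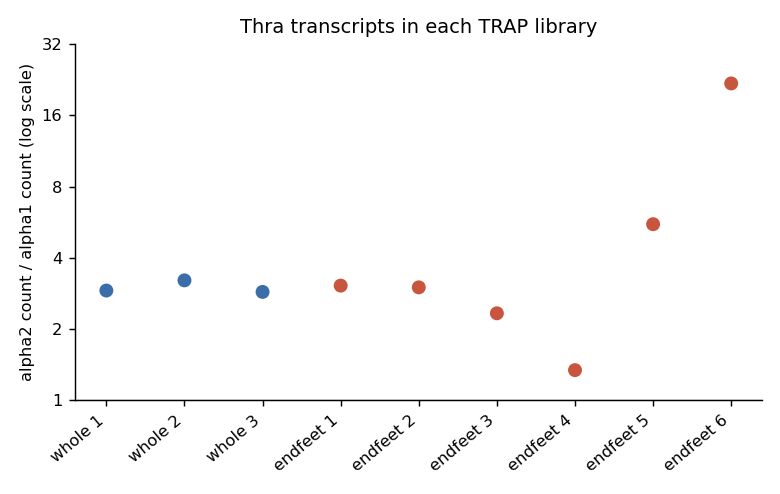
Ratio of alpha2 to alpha1 counts of Thra (log scale) in each library, whole astrocyte TRAP in blue and endfeet TRAP in red. The 3 whole astrocyte libraries sit between 2.87 and 3.21 and the 6 endfeet libraries spread on both sides of them, from 1.34 to 21.8.

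Among the genes known to respond to the hormone, Thrsp showed the largest fall of the 8 genes tested. Thrsp (Spot 14), at chr7:97412938-97417730, encodes a small protein that promotes fatty acid synthesis and is induced by triiodothyronine in liver and fat. Its whole astrocyte levels were 622, 600 and 599 CPM (21608 to 26058 counts), the narrowest spread of the 9 genes, with a coefficient of variation of 2.17%. In endfeet TRAP it had 0.431 to 21 CPM with a median of 13.2, from 1 count in library 6 to 263 counts in library 5. Every endfeet library was far below the whole astrocyte range. The mean fell from 607 ± 13.2 CPM (SD, n = 3) to 12.3 ± 8.17 CPM (SD, n = 6). The log2 fold change of -5.49 (SE 0.61; edgeR adjusted p = 2.07e-05), a level 44.8-fold lower, was the 57th most negative of the 14427 genes tested. Without endfeet library 6 it was -5.26. Per kilobase, Thrsp went from position 58 to position 6092 of 22091 genes.

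Klf9, at chr19:23141226-23168134, a transcription factor induced by thyroid hormone and glucocorticoids, had 492, 387 and 387 CPM in whole astrocyte TRAP (13945 to 17716 counts). Its endfeet levels of 41.3 to 102 CPM, with a median of 94.0 (214 to 1369 counts), did not overlap with these. The mean fell from 422 ± 60.9 CPM (SD, n = 3) to 83.9 ± 22.6 CPM (SD, n = 6), a log2 fold change of -2.26 (SE 0.27; edgeR adjusted p = 3.56e-05).

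Hr, at chr14:70554056-70573548, encodes hairless, a corepressor that binds the thyroid hormone receptors. It had 62.6, 75.5 and 74.9 CPM in whole astrocyte TRAP (2254 to 3258 counts) and 0 to 17.2 CPM with a median of 10.4 in endfeet TRAP. Library 6 had no count, which allows up to 1.29 CPM, and library 4 had 10 counts, or 0.789 CPM. The mean fell from 71.0 ± 7.24 CPM (SD, n = 3) to 9.09 ± 7.30 CPM (SD, n = 6), a log2 fold change of -2.84 (SE 0.87; edgeR adjusted p = 0.023). The call was lost without any 1 of the whole astrocyte libraries (adjusted p = 0.0633, 0.0711 and 0.0703). The log2 fold change was -4.22 against endfeet libraries 4 to 6 alone, -4.11 with the file-name series as a covariate, -3.80 with limma voom and -2.23 with the replicate block.

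**Figure D3:**
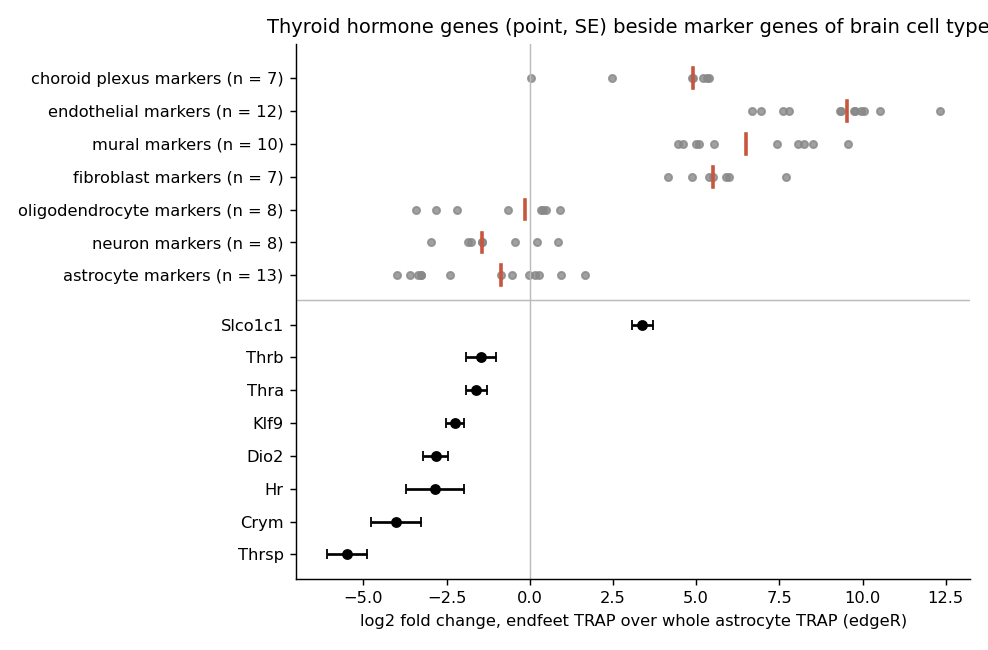
Log2 fold change, endfeet TRAP over whole astrocyte TRAP, of the 8 tested genes (black points, bars are SE) and of single marker genes of 7 brain cell types (grey points, red bars are medians). Slco1c1 at 3.38 lies above the astrocyte markers (-4.0 to 1.67) and within the range of the choroid plexus markers (0.05 to 5.40). It lies below the fibroblast (4.15 to 7.70), mural (4.44 to 9.56) and endothelial markers (6.68 to 12.32). Thrsp at -5.49 lies below all marker genes shown.

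Compared per kilobase, the order of the genes differed between the groups. In whole astrocyte TRAP it was Thrsp at 475 CPM per kilobase, Dio2 at 272, Thra at 136, Klf9 at 94.1, Crym at 76.2, Slco1c1 at 15.1, Hr at 12.9 and Dio3 at 0.186. Klf9 and Crym were neighbours whose ranges came close without overlapping (86.2 to 110 and 73.5 to 80.7), as were Slco1c1 and Hr (13.9 to 17.2 and 11.4 to 13.8). In endfeet TRAP the order was Slco1c1 at 148 CPM per kilobase, Thra at 42.9, Dio2 at 34.9, Klf9 at 18.7, Thrsp at 9.66, Crym at 4.63, Hr at 1.66 and Dio3 at 0.068. There the ranges of neighbours overlapped, apart from the gap between Slco1c1 (97.9 to 200) and Thra (19.2 to 71.2). Dio2 had 0.52 to 0.63 of the Thrsp level per kilobase in whole astrocyte TRAP and 2.07 to 45.5 times that level in endfeet TRAP. Thra stands in both orders by its alpha2 transcript, whose counts may include reads of Nr1d1. Its alpha1 transcript, of similar length (2246 against 2452 bases), had fewer counts in every library. Thra would have a lower level by alpha1, and its place in the orders was not worked out for that transcript.

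Some genes had patterns over libraries much like those of the members, among the 8480 genes tested with at least 10 counts in every library (Pearson r of log2(CPM + 1), a description over libraries that differ in depth and group). Thrsp was most like Ctnnd2 (r = 0.997), Gstm1 (0.997) and Dctn2 (0.992) over the 9 libraries and Cluh (0.994), Gm5424 (0.993) and Snx2 (0.993) over the 6 endfeet libraries. Dio2 was most like Idh3a (0.995), Suclg1 (0.995) and Id2 (0.992) over all libraries, and Kcnj16 (0.999), Id2 (0.995) and Idh3a (0.993) within endfeet TRAP, so Idh3a and Id2 appeared in both. Slco1c1 was most like Xbp1 (0.996), Atp8b2 (0.995) and Slco2b1 (0.992) over all libraries, and Sfpq (0.983), Uqcr10 (0.981) and Wdr89 (0.974) within endfeet TRAP.

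Other genes of the pathway were read from 10 lists, over which 28 of 84 tested genes (33.3%) were called higher and 8 (9.52%) lower, beside 20.7% and 13.9% of all genes tested. The counts of single lists are small and are to be read against these last shares. Transporters of thyroid hormone other than Slco1c1 were called higher in 6 of 9 tested, and the log2 fold changes of all 9 were above 0. Slco1a4, which encodes a thyroxine carrier of the blood-brain barrier, was at 0.957 ± 0.559 CPM in whole astrocyte and 936 ± 324 CPM in endfeet TRAP (log2 fold change 9.99). Slco2b1 rose by 4.98 on the log2 scale. The log2 fold changes of the 9 tested transporters had a median of 3.97 against 0.10 over all genes, and their summed level went from 54.5 to 73.5 CPM to 1257 to 2213, beside the endothelial markers given above. Transthyretin (Ttr), which carries thyroxine in blood and cerebrospinal fluid and is made by choroid plexus, rose from 885 ± 754 to 29138 ± 23554 CPM (log2 fold change 5.21, SE 1.18), and the choroid plexus markers rose in 6 of 7 cases with it. Ttr is itself one of those markers.

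Of 12 tested genes of selenoprotein synthesis and deiodinase turnover, 3 were higher and 1 lower, which is near the 20.7% and 13.9% of all genes. Wsb1, part of a ubiquitin ligase for the type 2 deiodinase, rose by 2.70 on the log2 scale. Lrp8, a receptor for selenoprotein P, rose by 2.66. Sephs2, which makes the selenium donor for selenocysteine, fell from 8.60 ± 1.81 to 0.703 ± 0.701 CPM (log2 fold change -3.50), a call lost without any 1 of the whole astrocyte libraries (adjusted p = 0.0646, 0.0737 and 0.0874), with the file-name series as a covariate and with the replicate block. Dio1, the remaining deiodinase, had 0.018 CPM in whole astrocyte TRAP and no count in endfeet TRAP, which is below the floor in both.

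Of 15 corepressors, coactivators and retinoid X receptors that work with the hormone receptors, 4 were higher and 1 was lower, also near the shares over all genes (20.7% and 13.9%). The coactivators Ncoa3 (log2 fold change 2.17) and Ep300 (1.69) rose, and Ncoa1 fell by 1.59 on the log2 scale, from 512 ± 13.9 to 159 ± 30.4 CPM. The call of Ncoa3 was lost without any 1 of the whole astrocyte libraries (adjusted p = 0.0832, 0.0822 and 0.073) and with summed transcripts (0.0612), and with the replicate block its log2 fold change was 1.09 (0.267). The retinoid X receptors, with which the hormone receptors pair on DNA, were not called: Rxra had a log2 fold change of -0.10 (SE 0.35), Rxrb 0.16 (SE 0.71) and Rxrg -0.95 (SE 1.26). The sign for Rxra flipped without endfeet library 3 and that for Rxrb under 5 other settings and without endfeet library 1.

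Other genes regulated by thyroid hormone in brain or liver moved in both directions, with 1 higher and 3 lower of 11 tested (20.7% and 13.9% of all genes). Reln, the secreted protein reelin, rose by 3.28 on the log2 scale. Rasd2 (log2 fold change -2.62) and the neuronal calmodulin-binding gene Nrgn (-2.26) fell, and the call of Rasd2 was lost without any 1 of the whole astrocyte libraries (adjusted p = 0.0797, 0.0683 and 0.0666), without endfeet library 2 (0.0509) and with the file-name series as a covariate (0.107). In the lipogenic list 4 were higher and 2 lower of 16, near the 20.7% and 13.9% of all genes. Mid1ip1, the paralog of Thrsp, fell from 710 ± 28.0 to 85 ± 39.4 CPM (log2 fold change -2.95, SE 0.35), and Me1, malic enzyme, fell by 1.91, a call lost without whole astrocyte library 1 (adjusted p = 0.0568) and with that covariate (0.0585). Acacb, an acetyl-CoA carboxylase, rose by 3.05 and Srebf1, which encodes a transcription factor of lipid synthesis, by 1.43.

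Of 13 Kruppel-like factors other than Klf9, 5 were higher and 1 was lower (20.7% and 13.9% of all genes), with 2 to 7 higher over the alternatives. Klf15 fell from 207 ± 6.42 to 11.0 ± 7.59 CPM (log2 fold change -4.13, SE 0.67), a larger fall than that of Klf9 at -2.26, although that difference was not tested. Klf2 (log2 fold change 5.31) and Klf4 (4.34), both known in endothelial cells, rose. Among 3 genes related to Hr, Jmjd1c rose by 1.55 and Kdm3a fell by 0.96 on the log2 scale, a call that was lost without any 1 of the whole astrocyte libraries (adjusted p = 0.167, 0.0691 and 0.0703), without endfeet library 2 (0.0501), with the covariate and with the replicate block. In the imprinted domain that holds Dio3, 2 of 7 listed genes were found and tested, and Rtl1 rose by 5.29 from 0.176 CPM, a call lost without any 1 of the whole astrocyte libraries (adjusted p = 0.108, 0.101 and 0.115) and with the covariate (log2 fold change 2.88; 0.144). Of the 3 tested genes of the thyroid axis and gland, Tshr, the thyrotropin receptor, had a log2 fold change of 4.20 with a wide spread (1.16 ± 0.245 against 18.4 ± 26.9 CPM). Its call was lost in 11 of the alternatives, where the log2 fold change was as low as 2.17 against endfeet libraries 4 to 6 alone (adjusted p = 0.232), 2.30 with the covariate (0.2) and 2.73 without endfeet library 1 (0.0882). Slc5a5, the iodide symporter, rose from 3.45 ± 0.932 to 32.3 ± 12.3 CPM (log2 fold change 3.32, SE 0.62).

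**Figure D4:**
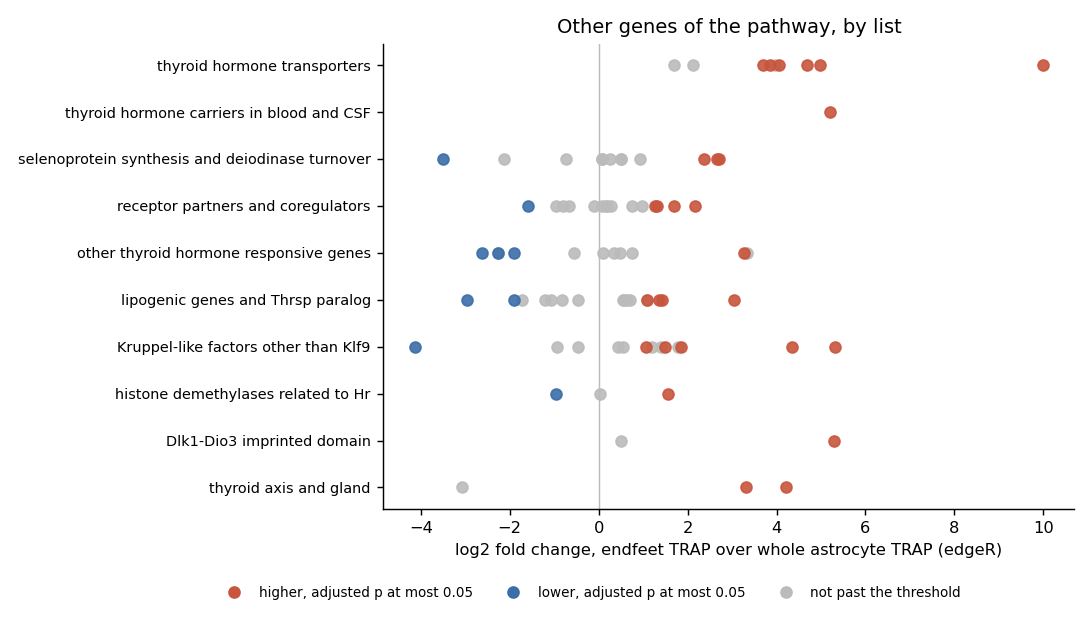
Log2 fold change, endfeet TRAP over whole astrocyte TRAP, of the tested genes of each pathway list, with genes called higher in red, lower in blue and uncalled in grey. All 9 tested transporters lie above 0, from 1.70 to 9.99, whereas the lists of receptor partners, hormone-responsive genes and lipogenic genes spread to both sides.

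The promoters of the 9 genes were searched for the receptor half-site AGGTCA on both strands in the RefSeq window from 250 bases before to 50 after the start. The half-site was in 1 of 7 promoters found for 6 of the genes, that of Thrb, and in 16.3% of 32851 promoters. The direct repeat of this half-site with a spacing of 4 bases was in 0 of the 7 and in 0.0152% of all. A match or its absence in these letters says nothing of binding.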

How the data were processed

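Each library was a table of read counts per Ensembl transcript, deposited by the authors, without normalization. Per the methods, amplified cDNA (NuGEN Ovation) was sequenced in 50-base reads, aligned to mm10 with Bowtie within Eoulsan, reads with more than 1 match were removed, and HTSeq-count 0.5.3 was run. A read can count for several transcripts of a gene, and whether strand was used is not given in the sources used here.

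Of 75466 transcripts, 73164 matched GENCODE M21 (GRCm38). The 2302 that did not match were left out of the tests and of the total counts given here. For a gene with several transcripts, the one whose CPM added up to most over the 9 libraries was kept. Lengths and coding stretches are those of GENCODE M21, which is later than the annotation used for counting. Levels in CPM are counts per 1e6 counts of the kept transcripts of a library. Only for the choice of the transcript was CPM taken over all counts in a table. The edgeR 4.0.16 quasi-likelihood test (R 4.3.3; TMM, filterByExpr, no covariate) compared 6 endfeet with 3 whole astrocyte libraries over 14427 genes, with Benjamini-Hochberg adjustment over all of them and a threshold of 0.05. The study used DESeq2, run here (1.42.0) as an alternative beside limma voom (3.58.1), other filters and scalings, left-out libraries and a replicate block. The Thra ratio (0.5 added to each count) had an exact permutation test. The scripts were tested on simulated data.

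The members, lists and tests were chosen with earlier results of these data known. All members are named, and from each pathway list the 2 genes with the largest fold change among those called in each direction, with Mid1ip1, Rxra, Rxrb, Rxrg, Dio1 and Ttr whatever their values (1 further gene of this rule is not reported here); Nr1d1 is named for its overlap with Thra. Exons of the RNA gene Gm26512, not analysed here, overlap 100 bases of Dio2 (chr12:90738201-90738300) on the opposite strand.

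The file names carry numbers in 2 series: endfeet libraries 1 to 3 are in one, endfeet libraries 4 to 6 and the whole astrocyte libraries in the other. What the series mark is not stated. Mice of different libraries are not said to be shared, and p-values rest on the spread between these libraries. The edgeR fit gave each gene the same dispersion in both groups. The common dispersions within the groups were far apart, 0.0141 in whole astrocyte and 0.724 in endfeet TRAP, so the edgeR p-values do not measure the spread of either group alone. The limma voom alternative gave each group its own weight. Floors cover counting error only, whereas each SE comes from a fit that includes the spread between libraries.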

Additional observations from a re-analysis of the deposited data

Results flagged for a closer look

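Dio3 in endfeet library 3 stood apart from the other 5 endfeet libraries, with 0.827 CPM (11 counts) where they had none. It was the only such gap among 10 sets of endfeet values (the 9 members and the Thra ratio), and with the other libraries at 0 any count would have stood apart in this way.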

How the results depend on the processing

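The 8 tested members kept their direction under all alternatives run. Thrsp, Dio2, Crym, Slco1c1 and Klf9 also stayed past the threshold wherever they were tested (log2 fold changes -5.91 to -5.26, -3.15 to -2.67, -5.73 to -3.50, 3.23 to 3.55 and -2.55 to -2.04). Thrb lost its call in number series B alone (-1.36) and with the series as a covariate (-1.23), and ranged from -1.85 to -1.27 with 1 library left out. Hr ranged from -3.15 to -2.59 in that way and lost its call without any 1 of the whole astrocyte libraries, and Thra lost its call on the alpha1 transcript (-1.52), an alternative chosen after seeing the data. With at least 10 counts in every library, 4 members were called lower, since fewer were tested. With 1 library left out, 5 to 7 members were lower. The Thra ratio ranged from -0.12 (without endfeet library 6) to 0.66.

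Over all pathway lists, 16 genes were lower with limma voom, 13 in series B, 4 with the series as a covariate, and 17 to 31 were higher and 5 to 11 lower with 1 library left out. Counts per list over all alternatives were, for higher and lower, 5 to 8 and 0 for transporters, 1 and 0 for carriers, 3 to 4 and 0 to 2 for selenoprotein genes, 1 to 5 and 1 to 2 for receptor partners, 1 to 2 and 1 to 5 for responsive genes, 2 to 6 and 1 to 5 for lipogenic genes, 2 to 7 and 0 to 2 for Kruppel-like factors, 1 and 0 to 1 for Hr-related genes, 0 to 1 and 0 for the Dio3 domain, and 1 to 2 and 0 to 1 for the thyroid axis. Kruppel-like factors called higher were 3 with summed transcripts, and lipogenic genes called lower were 4 in series B. Rxrb turned to -0.030 (at least 10 counts in every library), -0.43 (limma voom), -1.05 (series B), -0.93 (series covariate), -0.15 (summed transcripts) and, with 1 library left out, ranged from -0.75 (without endfeet library 1) to 0.36, and Rxra from -0.32 to 0.029 (without endfeet library 3). Tshr, Kdm3a, Me1, Rasd2, Rtl1, Sephs2 and Ncoa3 lost their calls under some alternatives. The cause of these changes was not tested.

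Over all genes, limma voom called 3928 higher and 4485 lower, against 2991 and 2006, and leaving out a whole astrocyte library left 1874 to 1959 and 1171 to 1217. The median log2 fold change of all genes was 0.23 with DESeq2 and -0.29 with limma voom, against 0.10. Same-numbered libraries of the groups did not deviate together (mean correlation 0.015, from -0.034 to 0.071, against -0.004 for other pairs). Such few pairs cannot show whether these libraries share more than a number. With the replicate block, which compares endfeet libraries 1 to 3 alone, all genes gave 2501 higher and 1958 lower, and 2 receptor partners, 2 lipogenic genes and 2 Kruppel-like factors were higher; no member changed its call. Depth limits Dio3, Dio1, and Hr and Thrsp in endfeet library 6.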
